A study of Homo sapiens with 6 samples.

Results

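Cytosolic ribosomal protein genes encode the proteins of the large (RPL genes) and small (RPS genes) subunits of the ribosome that translates nuclear-encoded mRNAs. Their transcripts were followed here in MDA-MB-231 cells, a human triple-negative breast cancer (TNBC) line with a mesenchymal phenotype, after silencing of the mitotic kinase NEK2. The genes were picked from the deposited gene table by their symbols (RPL or RPS with a number and, where present, an A, the 3 acidic stalk genes RPLP0, RPLP1 and RPLP2, and RPS4X and RPSA). This gave 77 of the 74852 rows, 46 for the large and 31 for the small subunit, spread over 21 chromosomes. FAU, whose product is a fusion of a ubiquitin-like protein with a ribosomal protein, falls outside these names and is described separately.

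The comparison was between cells transfected with 4 pooled non-targeting siRNAs (si-CTRL, n = 3) and cells of the same line transfected with 4 pooled siRNAs that target NEK2 (si-NEK2, n = 3). Per the sample labels, cells received the siRNAs in repeated rounds and were collected 24 h after the last of them, with no other treatment in either group. The methods of the study give a longer interval and another RNA extraction kit, and which of them applies to these libraries is not known. Only 1 pool was used per group, so that effects of NEK2 loss and of any single siRNA sequence cannot be told apart. Whether the groups were prepared in 1 batch is not given in the sources used here. In RNA from bulk cultures, a change in transcript per cell and a change in the mixture of cells cannot be told apart either.

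The si-CTRL libraries held 52625492, 67124351 and 69355385 assigned reads (replicates 1, 2 and 3) and the si-NEK2 libraries 87454509, 79663803 and 66957898. Depth thus differed between libraries, with si-CTRL replicate 1 the lowest and si-NEK2 replicates 1 and 2 the highest. NEK2 itself had 3702, 3323 and 3290 normalized counts in the si-CTRL libraries and 284, 362 and 388 in the si-NEK2 libraries, so that every library matched its label for the silenced gene. Among markers of the line, VIM, CD44 and AXL were abundant in all 6 libraries, while PGR, CDH1, EPCAM and ESR1 stayed between 0 and 15.2 normalized counts. ERBB2, in a row with a miRNA, was not near 0, at 2455 to 4085. A normalized count is the number of reads on a gene divided by the size factor of its library.

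Ribosomal proteins are made in nearly equal numbers, because each ribosome holds a single copy of almost every one of them. Their mRNAs are among the most abundant of proliferating cells, and most begin with a 5′ terminal oligopyrimidine (TOP) motif, a cytosine at the first base followed by an unbroken run of pyrimidines. The TOP motif puts translation of these mRNAs under the control of the kinase complex mTORC1, mainly through the RNA-binding protein LARP1 and the eIF4E-binding proteins. In tumour cells, ribosome production is high and is coupled to growth and cell cycle entry.

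Most of these genes shared a feature at the start of the transcript. Annotated starts were taken from RefSeq (GRCh38.p14), which gave 77 starts for 62 of the 77 genes. No start was at hand for the other 15 genes, RPL5, RPL23, RPL30, RPL37 and RPS2 among them. The following windows hold 15 bases before and 15 bases from the first transcribed base, with the longest run of C and T in capitals. They show the 4 genes with the largest log2 fold changes after NEK2 silencing, RPL13A and RPL22 as genes with steady values over the replicates, RPLP0 and RPS23 as genes that moved little, and RPS4X as a gene whose annotated start lies outside such a run.
RPL39: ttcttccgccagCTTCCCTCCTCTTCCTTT
RPS12: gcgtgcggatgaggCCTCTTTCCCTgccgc
RPL34: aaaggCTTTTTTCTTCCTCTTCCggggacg
RPS18: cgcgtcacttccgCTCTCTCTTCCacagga
RPL13A: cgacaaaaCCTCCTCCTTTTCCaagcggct
RPL22: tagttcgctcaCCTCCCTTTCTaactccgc
RPLP0: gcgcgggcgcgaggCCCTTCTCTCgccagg
RPS23: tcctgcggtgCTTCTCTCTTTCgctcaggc
RPS4X: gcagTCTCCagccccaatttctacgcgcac
These windows lie at chrX:119791616-119791645 (minus strand) for RPL39, chr6:132814554-132814583 (plus) for RPS12, chr4:108620561-108620590 (plus) for RPL34, chr6:33272060-33272089 (plus) for RPS18, chr19:49487593-49487622 (plus) for RPL13A, chr1:6199581-6199610 (minus) for RPL22, chr12:120201097-120201126 (minus) for RPLP0, chr5:82278340-82278369 (minus) for RPS23 and chrX:72277234-72277263 (minus) for RPS4X.

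A cytosine at the start with at least 4 more C or T behind it was present at 46 of the 77 starts (59.7%), compared with 4.07% of the 35116 starts of all genes in the same table. Counted by gene, 46 of 62 genes (74.2%) had such a start, compared with 5.14% of 27305 genes. A run of at least 7 C or T between 3 bases before and 15 after the start was found in 83.9% of the ribosomal protein genes and in 13.4% of all genes. The letters CTTTC, which can lie within such a run, were present between 5 bases before and 15 after the start in 48.4% of the genes and in 3.66% of all genes, and their reverse complement GAAAG in 0 of 62 genes and in 2.37% of all genes. The tract was as common in the other TOP genes with a start in the table (13 of 17). Those genes were listed for having this motif, so that their share is no independent comparison. It was present in 6 of 69 genes for mitochondrial ribosomal proteins (8.70%). Such matches describe letters in a window and not a site in use. The median log2 fold change after NEK2 silencing was 0.55 for the 46 genes with the tract and 0.47 for the 16 genes with a start but without it.

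**Figure D1:**
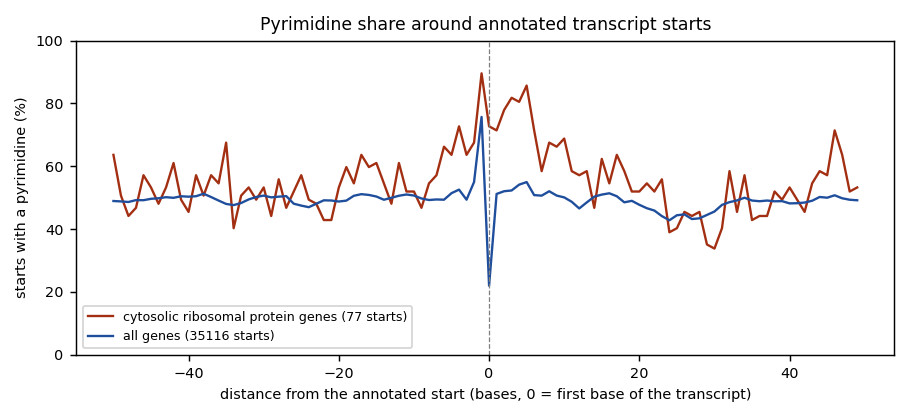
Share of annotated starts with a pyrimidine (%, y axis) by distance from the first base of the transcript (bases, x axis), for the cytosolic ribosomal protein genes (red) and all genes (blue). At the first base, 72.7% of the ribosomal protein starts and 21.9% of all starts hold a pyrimidine, and the red line stays above the blue line over the next 10 bases.

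All 77 genes were strongly expressed. Mean normalized counts over the 6 libraries ranged from 17227 to 145280, 29 of the genes were among the 100 genes with the highest means, 49 were among the highest 200, and the lowest ranked 726. The smallest number of reads on any of them in any library was 6245, where counting error alone is 1.27%, so that depth did not limit these comparisons. Per kb of transcript, the mean level in si-CTRL cells had a median of 58426 and spanned 18.4-fold. RPS24 (198320 per kb), RPS18 (165075), RPL37 (125793), RPLP1 (124811) and RPL39 (124079) were highest by this measure. RPS28 (10763 per kb), RPS26 (15043) and RPL10 (15119) were lowest, and for these 3 the annotated transcripts used for the length were among the longer ones of the set, at 1326, 1140 and 1747 bases. Levels per kb rest on the median length of annotated coding transcripts and not on the isoform present in these cells.

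Ribosomal protein mRNAs took a larger part of the reads after NEK2 silencing. They held 5.40%, 6.57% and 6.39% of the assigned reads in si-CTRL replicates 1, 2 and 3 and 7.95%, 7.88% and 7.53% in si-NEK2 replicates 1, 2 and 3. Every si-NEK2 library was above every si-CTRL library. The mean share was 6.12% ± 0.631 (SD, n = 3) in si-CTRL and 7.79% ± 0.223 (SD, n = 3) in si-NEK2 cells, a difference of 1.67 percentage points or 1.27-fold (two-sided exact permutation test, p = 0.1, the smallest value that 3 against 3 libraries allow). The si-CTRL replicate 1 was lowest, and the difference without it was 1.31 percentage points (1.20-fold). Large subunit genes went from 3.73% ± 0.339 to 4.73% ± 0.114 of the reads and small subunit genes from 2.396% ± 0.292 to 3.06% ± 0.110 (SD, n = 3), ratios of 1.27 and 1.28. Because the share is taken within each library, it does not depend on size factors.

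**Figure D2:**
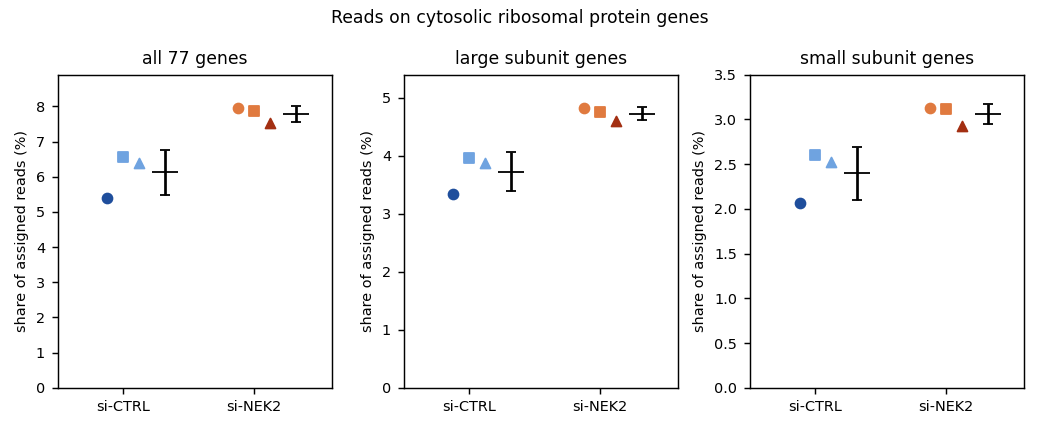
Share of assigned reads (%, y axis) on all 77 cytosolic ribosomal protein genes, on those of the large subunit and on those of the small subunit, for each library (points; circle, square and triangle are replicates 1, 2 and 3) with the mean and SD of 3 libraries (black). The si-NEK2 libraries lie between 7.53% and 7.95% for all genes, above the si-CTRL libraries at 5.40% to 6.57%.

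Gene by gene, the increase was modest and wide. All 77 log2 fold changes were above 0, from 0.11 to 0.90, with a median of 0.49 (1.41-fold) and quartiles at 0.42 and 0.60, while the median over all 18717 genes tested was 0.012 and 51.0% of them were above 0. At an adjusted p of at most 0.05 (limma with Benjamini-Hochberg adjustment), 62 of the 77 genes rose, against a background of 21.8% of all genes tested. None fell by limma, edgeR or DESeq2, with or without adjustment, since none had a negative fold change in these fits, against a background of 21.3% of all genes. The values of si-NEK2 and si-CTRL libraries did not overlap for 67 genes, with si-NEK2 higher, against a background of 28.2%, and for 0 genes with si-NEK2 lower, against 26.9%. By the thresholds of the study (p up to 0.05, fold change from 1.5), 24 genes were up-regulated, 14 of the large and 10 of the small subunit, against a background of 8.23%, and none was down-regulated, against 14.3%. Of the 649 other genes at least as abundant as the lowest ribosomal protein gene, 45.8% rose by adjusted p with a median log2 fold change of 0.20, and among the 105 of them with transcripts no longer than those of 9 in 10 ribosomal protein genes the values were 49.5% and 0.23. With edgeR on recovered reads, 61 genes rose by adjusted p (background 20.8%) and 17 by the thresholds of the study (7.66%). With DESeq2, the numbers were 66 (21.5%) and 17 (7.32%).

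**Figure D3:**
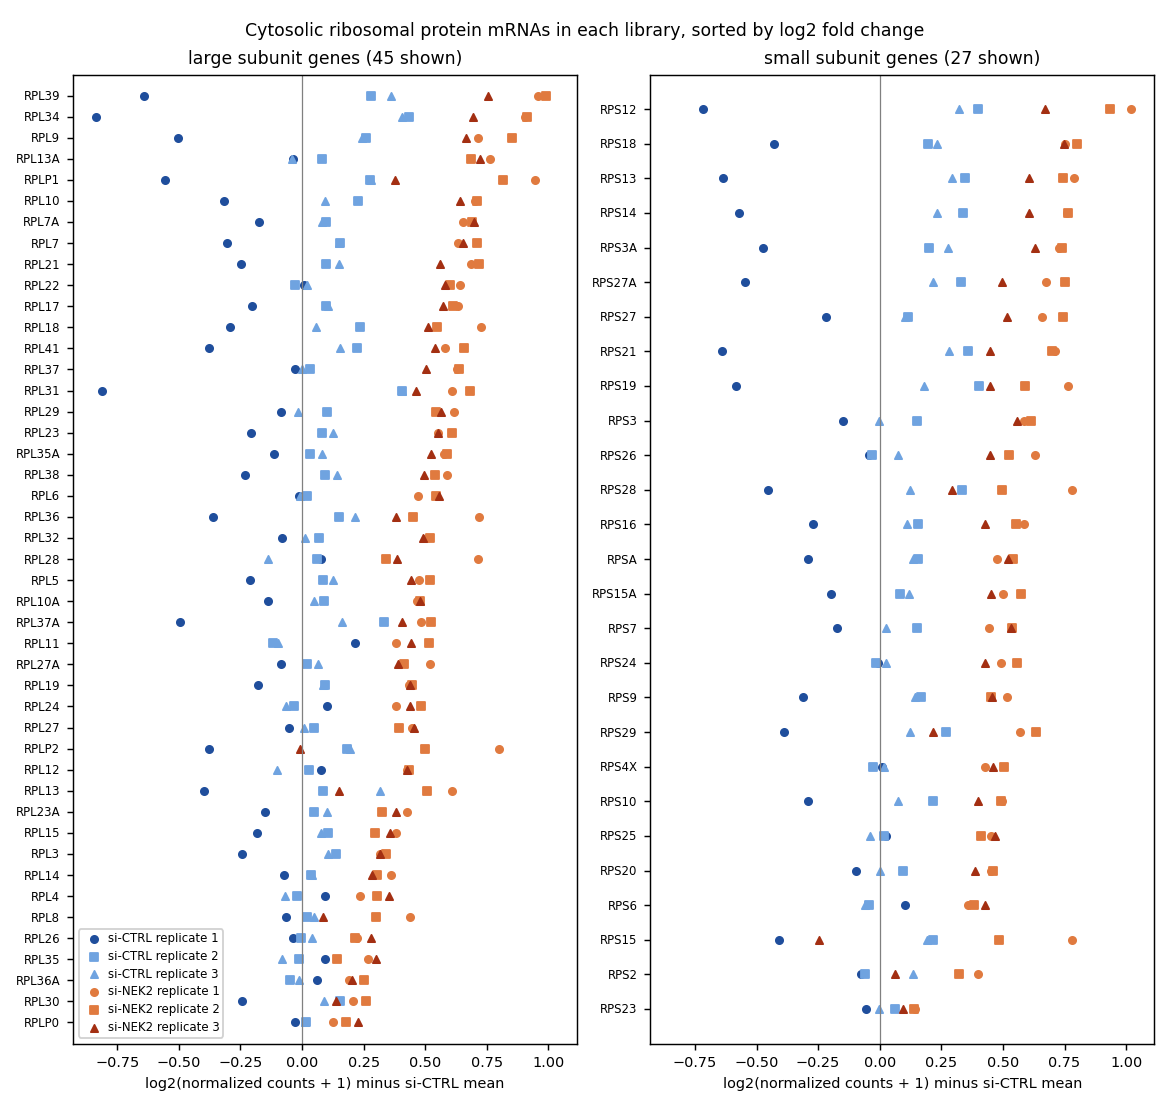
log2(normalized counts + 1) of 45 of the large subunit and 27 of the small subunit genes (rows, sorted by log2 fold change) in each of the 6 libraries (symbols), relative to the mean of the si-CTRL libraries (x axis, log2). Points of the si-NEK2 libraries (orange, dark red) lie to the right of the si-CTRL points (blue) for 65 of these 72 genes, and si-CTRL replicate 1 (dark blue circle) lies farthest left for 59.

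Among proteins of the large subunit, RPL39, a small protein of the wall of the nascent peptide exit tunnel, had the largest change. RPL39 (GSHG0032297, hg19 chrX:118920469-118925622) had 30458, 57695 and 61113 normalized counts in si-CTRL cells (replicates in this order, here and throughout) and 92348, 94508 and 80288 in si-NEK2 cells. All si-NEK2 values were above all si-CTRL values, with si-CTRL replicate 1 far below its group. The increase came to 0.90 on the log2 scale (SE, the standard error of the log2 fold change, 0.23; limma adjusted p = 0.0124), and to 0.58 without that library (adjusted p = 1.36e-04).

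RPL34, for which the study held a primer pair, had the same shape. The study gave its qRT-PCR levels, those of RBFOX2 and VIM among them, relative to L34, another name of this gene. How L34 behaved in those assays was not examined here. RPL34 (GSHG0022779, hg19 chr4:109541714-109551637) was at 7805, 18846 and 18455 normalized counts in the si-CTRL libraries and at 26120, 26240 and 22594 in the si-NEK2 libraries. Its log2 fold change of 0.84 (SE 0.29, limma adjusted p = 0.0455) came to 0.42 without si-CTRL replicate 1 (adjusted p = 6.66e-04), so that the value rested largely on 1 library.

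RPL13A and RPL22 rose by a similar amount with little spread. RPL13A, a protein of the large subunit that is also released to repress translation of inflammatory mRNAs in myeloid cells, had 66536, 72074 and 66238 normalized counts in the si-CTRL and 115869, 109677 and 112554 in the si-NEK2 libraries. Its row (GSHG0132430, hg19 chr19:49990811-49995562) also carries 4 snoRNAs and the pseudogene RPL13AP5, whose reads cannot be separated here. The means were 68283 ± 3287 and 112700 ± 3099 (SD, n = 3), a log2 fold change of 0.72 (SE 0.064, limma adjusted p = 6.45e-05).

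RPL22 (GSHG0001709, hg19 chr1:6245081-6259679), a protein that many cells can do without and that regulates its own paralog RPL22L1, had 60941, 59293 and 61376 normalized counts in si-CTRL and 94432, 91859 and 90405 in si-NEK2 cells. Its groups were far apart relative to their spread, with a log2 fold change of 0.61 (SE 0.058, limma adjusted p = 9.17e-05) that was also 0.61 without si-CTRL replicate 1. RPL7A, which also holds snoRNAs in its introns, went from 77011, 92964 and 91867 to 136870, 140273 and 141179 normalized counts, a log2 fold change of 0.68 (0.59 without si-CTRL replicate 1). RPL13A, RPL22 and RPL7A were the 3 genes that still passed both thresholds of the study when si-CTRL replicate 1 was left out.

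The other large subunit genes up-regulated by the thresholds of the study were RPL9, RPLP1, RPL10, RPL7, RPL21, RPL17, RPL18, RPL41 and RPL37, with log2 fold changes from 0.59 (RPL37) to 0.74 (RPL9). RPL10, which is loaded late and completes the large subunit for joining, had 20927, 30492 and 27818 normalized counts in si-CTRL and 42386, 42719 and 40713 in si-NEK2 cells. RPL37 was steadier, at 78486, 81813 and 80092 against 123785, 124429 and 113691. The rows of RPL21 and RPL17 also carry another gene or a pseudogene, and their values are uncertain to that extent.

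RPL5 and RPL11 form a complex with 5S rRNA that joins the large subunit and, when ribosome assembly is disturbed, binds MDM2. RPL5 had 51918, 63625 and 65556 normalized counts in si-CTRL and 83333, 86001 and 81622 in si-NEK2 cells (log2 fold change 0.48, limma adjusted p = 0.0032). RPL11 had 76136, 60476 and 61344 against 85468, 93715 and 89143 (0.45, adjusted p = 0.0054), with si-CTRL replicate 1 the highest of its group. Both rose without overlap of the groups. With quantile normalization neither passed adjustment, RPL5 at 0.24 (adjusted p = 0.0514) and RPL11 at 0.18 (adjusted p = 0.187).

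The acidic stalk recruits the GTPases of translation to the large subunit and consists of RPLP0 with dimers of RPLP1 and RPLP2. RPLP0, often used as a reference gene in qPCR, had 116366, 120027 and 119744 normalized counts in si-CTRL and 129624, 134375 and 138964 in si-NEK2 cells, without overlap and with a log2 fold change of 0.18 (SE 0.062, limma adjusted p = 0.0443). RPLP1 had 36531, 64998 and 65094 against 103321, 94365 and 69751, a log2 fold change of 0.71 (adjusted p = 0.0323). RPLP2 had 22808, 33614 and 33902 against 51525, 41883 and 29482, a log2 fold change of 0.43 (adjusted p = 0.133), and its groups overlapped. In RPLP1 and RPLP2, si-NEK2 replicate 3 was well below the other 2 si-NEK2 libraries. Whether the 3 stalk genes differ in response was not tested.

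In the small subunit, RPS12, RPS18, RPS13, RPS14, RPS3A, RPS27A, RPS27, RPS21, RPS19 and RPS3 were up-regulated by the thresholds of the study. RPS12 (GSHG0026047, hg19 chr6:133135708-133138702) had 19672, 42585 and 40359 normalized counts in si-CTRL and 65647, 61836 and 51506 in si-NEK2 cells. The groups did not overlap and each had 1 library below the others, si-CTRL replicate 1 and si-NEK2 replicate 3. Its log2 fold change was 0.88 (SE 0.26, limma adjusted p = 0.0237), and 0.52 without si-CTRL replicate 1.

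RPS18, a protein of the head of the small subunit, was at 72068, 111392 and 114170 normalized counts in si-CTRL and 163400, 169400 and 162912 in si-NEK2 cells (log2 fold change 0.77, limma adjusted p = 0.00447). RPS14, whose loss in deletions of chromosome arm 5q impairs red cell formation, was at 38506, 72305 and 67276 against 96924, 97174 and 86954 (0.71, adjusted p = 0.0216). RPS3, which lines the entry channel of the mRNA, was at 41274, 50755 and 45713 against 68632, 70028 and 67292 (0.59, adjusted p = 5.86e-04). In all 3, no si-NEK2 library fell to the level of any si-CTRL library.

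RPS27A, made as a fusion with ubiquitin, had 24189, 44402 and 40948 normalized counts in si-CTRL and 56345, 59453 and 49851 in si-NEK2 cells (log2 fold change 0.64, limma adjusted p = 0.0296). RPS21 and RPS19 passed the unadjusted threshold of the study but not adjustment (log2 fold changes 0.62 and 0.60, adjusted p = 0.0576 and 0.0522). RPS19, the gene most often mutated in Diamond-Blackfan anaemia, was at 18126, 35942 and 30755 against 46143, 40905 and 37067, with si-CTRL replicate 1 well below every other library. Of 18 ribosomal protein genes listed as mutated in that anaemia, which share members with the counts above, 13 rose, beside 62 of all 77 and a background of 21.8%, with a median log2 fold change of 0.49, and 5 did not pass adjustment, RPS19, RPL31, RPS28 and RPS29 among them.

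Several well-known proteins of the small subunit rose by less than 1.5-fold. RPS6, the substrate of the S6 kinases, had 107474, 97006 and 96010 normalized counts in si-CTRL and 128204, 130337 and 134625 in si-NEK2 cells (log2 fold change 0.39, limma adjusted p = 0.00205). RPS4X, encoded on the X chromosome with a copy on the Y chromosome, had 81004, 78988 and 81454 against 108312, 114006 and 110743 (0.46, adjusted p = 3.88e-04). RPSA, also known as the laminin receptor, had 52093, 70913 and 70062 against 88716, 92756 and 91399 (0.51, adjusted p = 0.00648), with a log2 fold change of 0.37 without si-CTRL replicate 1 and of 0.24 with quantile normalization (adjusted p = 0.116). RPS24, the most abundant per kb, had 119985, 119397 and 122651 against 169743, 177550 and 162355 (0.49, adjusted p = 4.22e-04). For RPS4X and RPS24 the 3 si-CTRL libraries lay within a narrow range of each other, and the increase was the same without replicate 1 to within 0.01 on the log2 scale.

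The 15 genes that did not pass an adjusted p of 0.05 included RPL13, RPL30, RPL31, RPL37A, RPLP2, RPS2, RPS15, RPS19, RPS21, RPS23, RPS28 and RPS29. For RPS19, RPS21, RPS23, RPL31 and RPL37A the groups still did not overlap, and in the remaining 10 genes at least 1 si-NEK2 library fell among the si-CTRL values. RPS23, a protein of the decoding centre, was at 91263, 99105 and 94687 normalized counts in si-CTRL and 104863, 104418 and 101253 in si-NEK2 cells (log2 fold change 0.12, SE 0.062, limma adjusted p = 0.141). A p above the threshold in these 15 genes does not show that they stayed level.

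Libraries of the same group were not alike for these genes. The si-CTRL replicate 1 was the lowest of all 6 libraries for 62 of the 77 genes, and its ratio to the mean of si-CTRL replicates 2 and 3 ranged from 0.418 (RPL34) to 1.27 with a median of 0.812. The ratio was below 0.7 in 22 genes. Of these, 13 were up-regulated by the thresholds of the study, beside 24 of all 77 and a background of 8.23% of all genes tested. Their median log2 fold change was 0.61, and 0.35 without this library. In the 20 genes with a ratio of 0.95 or more, the median log2 fold change was 0.44, and 0.47 without si-CTRL replicate 1. Both sets were picked by a library that is part of the fold change, so that these shifts are largely set by the choice of genes. Across the 77 genes the log2 of the ratio and the log2 fold change had a Pearson's r of -0.62. With the fold change taken without si-CTRL replicate 1, r was 0.09. Both correlations in part restate the same si-CTRL values, as replicates 2 and 3 enter the ratio and either fold change.

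Transcript length moved with that ratio. The median ratio was 0.686 for the 19 ribosomal protein genes with transcripts of up to 600 bases, 0.833 for the 40 genes of 600 to 1000 bases and 0.888 for the 17 genes of 1000 to 2000 bases. Among other genes tested it was 0.833 for the 138 genes of up to 600 bases and 1.04 for the 3019 genes above 4000 bases. The si-NEK2 replicate 3 was the lowest of its group for 49 ribosomal protein genes, with a ratio to the other 2 si-NEK2 libraries from 0.542 (RPS15) to 1.07. For the 6 ribosomal protein genes above 60% GC, this ratio had a median of 0.817, compared with 0.903 for the 2069 other genes above 60% GC. The part of length, GC content and RNA quality in the differences between groups was not tested.

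Without si-CTRL replicate 1 the direction held and the size shrank. All 77 log2 fold changes remained above 0 with a median of 0.40 (1.32-fold), and 67 genes rose by adjusted p against a background of 26.7%, including all 62 of the full comparison. The number that reached a fold change of 1.5 was 3, compared with 24 with all libraries, against a background of 7.40%. Without both si-CTRL replicate 1 and si-NEK2 replicate 3, a choice made after the values were seen, 74 genes rose by adjusted p (background 27.0%), 7 passed the thresholds of the study (7.51%) and the median was 0.43.

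**Figure D4:**
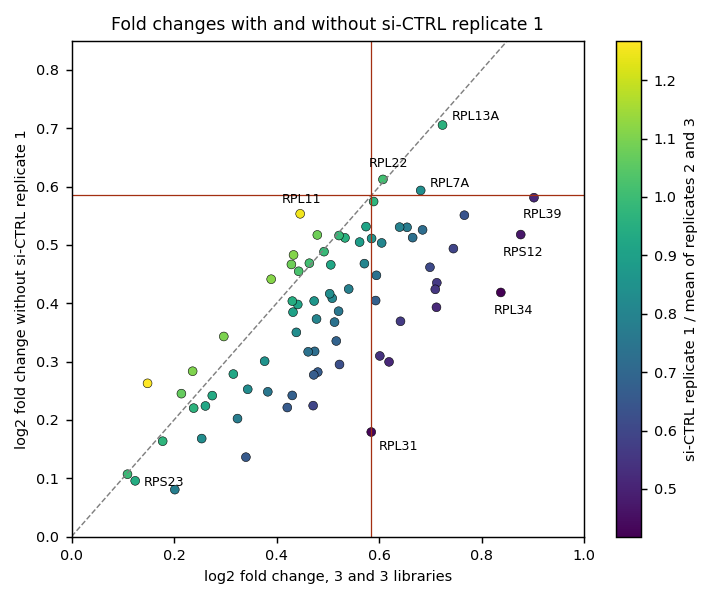
log2 fold change of each of the 77 genes with all 6 libraries (x axis) and without si-CTRL replicate 1 (y axis), coloured by the ratio of si-CTRL replicate 1 to the mean of si-CTRL replicates 2 and 3; the dashed line marks equality and the red lines a fold change of 1.5. All points lie above 0 on both axes, dark points of low ratio lie below the dashed line, and RPL13A, RPL22 and RPL7A lie above both red lines.

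The choice of scaling also set how many genes reached the thresholds. When all libraries were scaled to the same total of reads, the median of all genes moved from 0.012 to -0.11, and the ribosomal protein genes had a median of 0.36, or 0.48 above that of all genes. The numbers were then 45 genes by adjusted p (background 13.8%) and 6 by the thresholds of the study (5.03%). With quantile normalization they were 36 (21.1%) and 5 (9.76%), with a median of 0.33 beside 0.046 for all genes. With equal totals RPS23 had a log2 fold change just below 0, at -0.0041. The log2 fold change was above 0 in every one of the 19 fits for 72 genes, with RPL36A, RPLP0 and RPS23 among the exceptions. The row of RPL36A also carries HNRNPH2, and its values are uncertain to that extent. By adjusted p, 36 genes rose in all 19, among them RPL39, RPS18, RPL13A, RPL10, RPL7A, RPL22, RPL37, RPS3, RPS24, RPS4X and RPS6. The adjusted p rose above 0.05 in 11 of 18 alternatives each for RPL34, RPL35 and RPL8 and, beside the change of sign with quantile normalization, in 11 each for RPLP0 and RPL36A, in 9 for RPL3, in 8 each for RPLP1 and RPS13, in 7 each for RPS27A and RPL36, in 5 for RPS14 and in 4 each for RPS12 and RPL26.

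Reads of ribosomal protein mRNAs can also fall on their many processed pseudogenes. The 29 rows of the table named as such pseudogenes and holding no member gene had between 16066 and 26312 reads per library, 0.373% to 0.565% of the reads on the 77 genes. How reads with several possible origins were counted is not given in the sources used here. Restricted to the 58 genes whose row carries no other symbol, 47 rose by adjusted p, against 25.9% of all such rows tested, 17 passed the thresholds of the study, against 8.60%, and the median was 0.50.

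Genes that encode related forms of the same proteins did not all move with them. FAU, the fusion described above and not a paralog, had 6430, 11483 and 11135 normalized counts in si-CTRL and 14282, 13573 and 11830 in si-NEK2 cells. Its log2 fold change was 0.49 (limma adjusted p = 0.0754), with si-CTRL replicate 1 well below every other library. Of 8 such paralogs and fusions tested, 3 rose, RPL36AL and RPL7L1 among them, and 1 fell (background 21.8% and 21.3%), with a median of 0.29, and RPL3L and RPL10L were under the filter on low values. RPL39L, the paralog of RPL39 that is enriched in male germ cells, fell from 1807, 2335 and 2324 to 1624, 1583 and 1243 normalized counts (log2 fold change -0.54, adjusted p = 0.011). RPL26L1 was at 6064, 7608 and 7939 against 6155, 6204 and 5717 (-0.25, adjusted p = 0.0793), RPL22L1 had a log2 fold change of 0.23 (adjusted p = 0.0536) and RPS27L of 0.12 (adjusted p = 0.582). RPS27L changed sign to -0.10 without si-CTRL replicate 1. RPL26L1 was at -0.37 without that library (limma adjusted p = 3.84e-04) and was called lower in 6 of 18 alternatives. FAU was called higher in 3 of them and RPL22L1 in 2.

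Other genes with TOP mRNAs, mostly translation factors and snoRNA hosts, had a median log2 fold change of 0.43, and 17 of 24 rose and 2 fell, against a background of 21.8% and 21.3% of all genes. EEF1A1, the carrier of aminoacyl-tRNA to the ribosome, rose by 0.60 on the log2 scale (limma adjusted p = 3.21e-04) in a row that also carries snoRNAs, and was at 0.19 with quantile normalization (adjusted p = 0.328). The snoRNA host genes SNHG5 (1.16) and SNHG8 (0.87) and EIF4A2 (0.89), whose row also holds snoRNAs and a miRNA, had the largest increases. RACK1, a component of the small subunit without an RPS name, had a log2 fold change of 0.27 (adjusted p = 0.00951), a call that was lost in 4 of 18 alternatives. NPM1 (-0.76) and NAP1L1 (-0.54) fell. FAU is a member of this list as well.

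**Figure D5:**
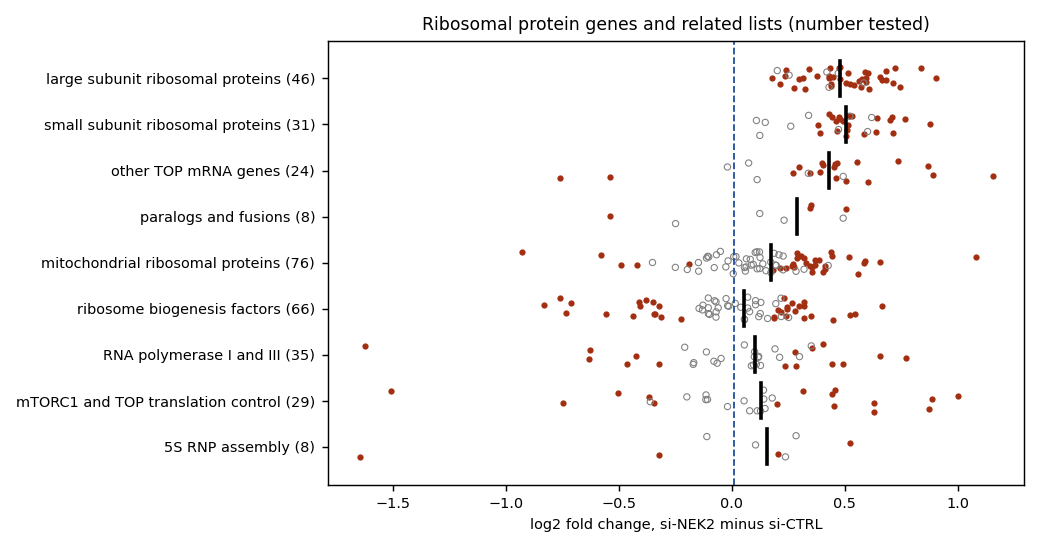
log2 fold change (x axis) of each gene tested in the 2 subunits and in 7 related lists (rows), filled red where the adjusted p is at most 0.05 and open grey otherwise, with list medians as black bars and the median of all genes as a dashed line at 0.012. The subunits have medians of 0.48 and 0.50 with every gene above 0, whereas the lists of biogenesis factors, RNA polymerase I and III and mTORC1 hold genes on both sides.

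Genes for the machinery that makes ribosomes went both ways, in shares not far from those of all genes tested (21.8% higher and 21.3% lower). Among 66 ribosome biogenesis factors, whose median change was 0.056 on the log2 scale, 19 (28.8%) rose and 15 (22.7%) fell. The nucleolar proteins NCL (-0.83) and NPM1 (-0.76) and the stalk assembly factor MRTO4 (-0.73) fell most, and DDX52 (0.66), TSR2 (0.55), which escorts RPS26, and HEATR3 (0.52), which imports RPL5, rose most. NCL had 112929, 100516 and 101356 normalized counts in si-CTRL and 56430, 57887 and 62448 in si-NEK2 cells. Of 35 genes of RNA polymerases I and III and their factors, which transcribe rRNA, 5S rRNA and tRNA, 9 (25.7%) rose and 6 (17.1%) fell, with a median of 0.10. POLR3G (-1.62), RRN3 (-0.63) and TAF1A (-0.63) fell most and GTF3C2 (0.77), BRF2 (0.66) and POLR1C (0.49) rose most.

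Genes of mTORC1 signalling and TOP mRNA translation also went both ways, 10 of 29 (34.5%) up and 5 (17.2%) down, against 21.8% and 21.3% of all genes, with a median of 0.13. The eIF4E-binding proteins, repressors of TOP mRNA translation when mTORC1 is inactive, went in opposite directions, EIF4EBP1 from 7398, 6175 and 7076 to 4378, 3966 and 3921 normalized counts (log2 fold change -0.75, limma adjusted p = 2.18e-04) and EIF4EBP2 from 24354, 23065 and 22562 to 45751, 48834 and 45538 (1.00, adjusted p = 1.31e-05). Inhibitors of mTORC1 signalling went both ways, as DEPTOR (0.88) and DDIT4 (0.87) rose while SESN1 (-0.50) fell. EIF4G2 (-1.51) fell as well. LARP1 was at 9685, 6477 and 6288 against 5493, 5488 and 6179 (-0.36, adjusted p = 0.0858). Its groups did not overlap, and it was called lower in 6 of 18 alternatives. A further list of 8 genes covered both 5S rRNA assembly and the p53 checkpoint. HEATR3 and RPF2 (0.20) of its assembly genes rose and RRS1 (-0.32) fell, and CDKN1A (-1.65), a checkpoint gene, fell, against the same background. The call was lost in 11 of 18 alternatives for RPF2 and in 2 for RRS1. Genes for mitochondrial ribosomal proteins had a median of 0.17, with 28 of 76 (36.8%) rising and 5 (6.58%) falling, against 21.8% and 21.3%. MRPS6 (1.08, in a row with SLC5A3), MRPS36 (0.66) and MRPL48 (0.59) rose most, and MRPS2 (-0.93), MRPS5 (-0.58) and MRPL3 (-0.49) fell most. MRPS36 was at 0.34 without si-CTRL replicate 1 and lost its call in 10 of 18 alternatives. Differences between these lists and the cytosolic ribosomal protein genes are given as counts and medians and were not tested.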

How the data were processed

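MDA-MB-231 cells transfected with si-CTRL or si-NEK2 gave 3 polyA RNA libraries per group (TruSeq Stranded mRNA kit per the labels). The authors deposited 1 normalized value (signal) per gene and library, in which read counts had been scaled by DESeq2 size factors. Genes follow FAST DB and positions follow hg19, and replicates were kept apart. The submitters' processing notes list STAR 2.4.0, SAMtools, Picard and FastQC. The counter, the use of strand and the handling of multi-mapping reads are not given in the sources used here, so that overlapping genes may share reads. Dividing by the step of 1 read gave whole numbers (tolerance 0.01) for 100% of the deposited signal values in every library, and hence the reads (52625492 to 87454509 per library).

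The 18717 genes whose mean reached 10 normalized counts were tested by fitting log2(value + 1) with limma 3.58.1 (R 4.3.3; eBayes trend), and p-values were adjusted over all of them (Benjamini-Hochberg). A fold change on this scale understates low genes. "Regulated" means an unadjusted p up to 0.05 with a change of 1.5-fold or more, as in the methods of the study, which name no test. "Rose" and "fell" mean an adjusted p of at most 0.05. The share of reads was compared by an exact permutation test (scipy 1.17.1). Replicates are described only as triplicates, so that p-values measure the spread between these libraries. The members, the gene lists and the rule for named genes were chosen with earlier results of these data known. Named genes were the regulated members, the 8 largest changes past adjusted p without overlap, the extremes per kb, the 3 smallest changes, a fixed set of well-known members and paralogs, and up to 3 genes per direction of each related list. Values of some single genes are not reported here. Rows with several symbols (19 of 77) are named by the ribosomal symbol. RPS6, EEF1A1, LARP1 and the members that missed an adjusted p of 0.05 were named after their values were seen. Transcript length and GC content are medians over coding transcripts of GENCODE v29. Start sequences come from RefSeq (GRCh38.p14). Tests ran on simulated data before use. Other settings tried were a pseudocount of 0.1 or 5, a minimum mean of 0 or 50, scaling by quantiles, by the upper quartile or to equal totals (of all or of other genes), no trend, a replicate block, leaving out each library, and, on recovered reads, edgeR 4.0.16 with TMM or DESeq2 1.42.0. Leaving out 2 libraries together and rows with several symbols was added after the data were seen.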

Additional observations from a re-analysis of the deposited data

How the results depend on the processing

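The number of regulated ribosomal protein genes was the least stable value, given here with the share of all genes regulated upward where available. With all libraries it was 24 (8.23%), with an equal total of all genes 6 (5.03%) and with quantile normalization 5 (9.76%). Upper quartile scaling gave 14 and an equal total of the other genes 10. Leaving out 1 library gave 3 to 35, the lowest without si-CTRL replicate 1 (7.40%) and the highest without its replicate 2. It was 7 (7.51%) without si-CTRL replicate 1 and si-NEK2 replicate 3 together. The number past adjusted p was 36 with quantile normalization (21.1% of all genes), where the median log2 fold change was 0.33. When 1 library was left out it lay between 48 and 67, with medians from 0.40 to 0.56, and was 67 without si-CTRL replicate 1 (26.7%). The cause of these shifts was not tested. The difference in read share lay between 1.31 and 1.89 percentage points. The replicate numbers did not pair the libraries (correlations of deviations of -0.091, 0.047 and -0.15 for same-numbered libraries). With the number as a replicate block, 24 genes were regulated and 56 passed adjusted p. Counts in this paragraph without a share of all genes have no background to be set against.

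Of 114 single genes recomputed, ribosomal protein genes and the others given with a fold change, 4 changed sign under an alternative. With quantile normalization RPLP0 was at -0.041, RPL36A (in a row with HNRNPH2) at -0.023 and RPS23 at -0.072. With equal totals RPS23 was at -0.0041 and RPS27L at -0.0042. Leaving out 1 library, RPS27L ranged from -0.10 to 0.24. None of these negative values passed adjustment. Among the remaining values of single genes, 1852 kept direction and side of the threshold, 151 lost the call and 43 gained it. Depth did not limit the ribosomal protein genes, whose smallest number of reads was 6245.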
